A study of Mus musculus with 10 samples.

Results

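Fragments of the 45S ribosomal RNA unit were examined in mouse spermatozoa. The unit comprises the 45S precursor and the mature 5.8S, 18S and 28S-rRNAs that are cut from it, and its members were taken as the 4 rRNA species of these names in the rRNA set of the annotation. They were 4 of the 8 rRNA species in that set and 4 of the 1470 RNA features formed from the files. Small RNA was sequenced in 10 sperm samples, 5 of HFD-F0 and 5 of CD-F0 mice. Both groups were C57BL/6J males, the fathers (F0) of the study. It looked in sperm for small RNAs cut from tRNAs that change with the diet of the father. It also asked how these contribute to altered metabolism in the offspring. From 4 weeks of age and for 10 weeks, the HFD-F0 mice received a high-fat diet with 42% of kcal as fat, and the CD-F0 mice a control diet with 10% of kcal as fat. Mature sperms came from the tail of the epididymis and the vas deferens, and the RNA was cut from a gel at 18–30 nt, so the reads are fragments of rRNA and not whole rRNAs. Each sample had 29558751 to 32178088 clean reads. The sources used here do not say if a sample is 1 mouse, and the p-values therefore measure only the spread between these samples.

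In cells that make ribosomes, RNA polymerase I transcribes the 45S precursor from repeated genes in the nucleolus, and the precursor is cut and modified with the help of small nucleolar RNAs. The 18S-rRNA goes to the small ribosomal subunit, while the 5.8S and 28S-rRNAs go to the large subunit, where they pair with each other. The 5S-rRNA of the large subunit comes from other genes, and the 12S and 16S-rRNAs belong to the ribosome of the mitochondrion. Sperm shed most of their cytoplasm and carry few intact ribosomes, and fragments of rRNA are known as a large class of their small RNAs.

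Most copies of the rRNA genes are missing from mouse genome assemblies, which bears on how the reads were counted, since the files list rRNA reads that match the genome apart from those that do not. For 18S-rRNA, the assembly holds a copy of 1849 bases on the plus strand of GRCm38 (mm10), which GENCODE M21 places at chr17:39846353-39848201. RefSeq lists it as the pseudogene Rn18s-rs5, with both ends 1 base further on, and the GENCODE ends are used here. Its start and its end are shown to identify the rRNA and to show where a mature 18S fragment passes into sequence that belongs to the precursor alone. Capitals mark the 18S-rRNA, and lower case marks the internal transcribed spacer that follows it and is removed from the precursor. The bases were read from the GENCODE transcripts, written as DNA from 5′ to 3′.
18S start, chr17:39846353-39846402: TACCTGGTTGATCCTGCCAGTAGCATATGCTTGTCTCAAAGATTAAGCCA
18S end and spacer, chr17:39848152-39848251: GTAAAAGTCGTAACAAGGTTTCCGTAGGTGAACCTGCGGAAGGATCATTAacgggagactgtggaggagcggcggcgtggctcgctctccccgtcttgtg
The non-coding gene Gm42418 (chr17:39846958-39848788, plus strand) spans the same place and joins 1244 bases of the 18S-rRNA to 587 bases of the spacer. The files give no position for a read within its rRNA, so the ends that the fragments cover were not analysed here. Each rRNA read was counted under 1 species, but in which order the 4 sequences were searched is not given in the sources used here. A read listed as 45S-rRNA is therefore a read of the precursor sequence that was not listed as 5.8S, 18S or 28S, and it is not known to come from a spacer.

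The 4 rRNAs took a large part of the libraries. In CD-F0 replicates 1 to 5 they made up 35.9%, 23.6%, 23.98%, 29.2% and 26.5% of the clean reads. In HFD-F0 replicates 1 to 5 they made up 28.5%, 23.0%, 24.3%, 23.98% and 23.1%. The highest value was thus in CD-F0 replicate 1, the groups overlapped, and the means were 27.8% ± 5.03 (SD, n = 5) and 24.6% ± 2.26 (SD, n = 5). Among all reads of the rRNA set, the 4 accounted for 93.9% to 97.3%. Among all reads that did not match the genome, they accounted for 54.5% to 70.6%. Reads that matched the genome were 64.9% to 75.2% of the clean reads with the 4 rRNAs and 83.9% to 89.1% without them.

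Among the samples, CD-F0 replicate 1 had the highest levels of 5.8S and 28S-rRNA relative to its clean reads. HFD-F0 replicate 2 had the lowest levels of 5.8S and 45S-rRNA and the highest of 18S-rRNA. This pair was chosen after seeing the data, and the diet differences in share and level are given with and without both.

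The composition of the unit differed between the diets in these samples, with a smaller part of 5.8S-rRNA in HFD-F0 sperm. The permutation p-values for diet given here and below are not adjusted over the 4 members, which were chosen with earlier results known. The share of a species is its part of the reads of the 4 rRNAs, in percent. Since the shares are of reads and not per length of rRNA, they do not rank the amounts of the rRNAs, and since they sum to 100 a fall of one raises others. The 5.8S share in CD-F0 replicates 1 to 5 was 47.8%, 42.1%, 44.9%, 50.7% and 42.0%. In HFD-F0 replicates 1 to 5 it was 38.1%, 24.9%, 40.9%, 33.2% and 38.3%. All 5 HFD-F0 samples were below all 5 CD-F0 samples, by as little as 40.9% against 42.0%. The CD-F0 mean was 45.5% ± 3.75 (SD, n = 5) and the HFD-F0 mean 35.1% ± 6.35 (SD, n = 5). They differed by -10.4 percentage points (p = 0.00794 in a two-sided exact permutation test, the lowest value that 5 against 5 samples can give). Without CD-F0 replicate 1 and HFD-F0 replicate 2 the difference was -7.30 percentage points (p = 0.0286, exact permutation test). Groups that do not overlap stay apart when samples are dropped, so this p was fixed in advance and says nothing on stability. The 5.8S share fell among the genome-matched reads alone, by 8.41 percentage points (p = 0.0476, exact permutation test), and among the unmatched reads alone, by 9.15 percentage points (p = 0.0397, exact permutation test), although the groups overlapped in both.

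The 18S share moved the other way in the summed reads. In CD-F0 replicates 1 to 5 the 18S share was 10.6%, 10.1%, 9.94%, 8.89% and 10.96%. In HFD-F0 replicates 1 to 5 it was 12.5%, 19.8%, 11.3%, 12.6% and 10.6%. Above the highest CD-F0 sample lay 4 of the 5 HFD-F0 samples, and HFD-F0 replicate 2 was far above the rest. The means were 10.1% ± 0.788 (SD, n = 5) and 13.4% ± 3.70 (SD, n = 5), and the share rose by 3.26 percentage points (p = 0.0159, exact permutation test). Leaving out CD-F0 replicate 3 or 4 alone ended this call (p = 0.0635 at the highest, exact permutation test), and without HFD-F0 replicate 2 the difference was 1.66 percentage points. Without CD-F0 replicate 1 and HFD-F0 replicate 2 the difference was 1.78 percentage points and did not pass the threshold (p = 0.0571, exact permutation test). It passed in neither the genome-matched reads (3.57 percentage points, p = 0.143, exact permutation test) nor the unmatched reads (1.93 percentage points, p = 0.508, exact permutation test). Nor did it pass as a centred log-ratio, the log of the share less the mean log share of the 4 (0.290, p = 0.0794, exact permutation test).

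For 28S-rRNA, the catalytic RNA of the large subunit, the share in CD-F0 replicates 1 to 5 was 31.5%, 35.6%, 31.5%, 28.1% and 36.2%. The 28S share in HFD-F0 replicates 1 to 5 was 38.6%, 47.6%, 33.7%, 36.2% and 34.7%. The groups overlapped, and the difference of 5.61 percentage points did not pass the threshold (p = 0.0635, exact permutation test). It was 3.25 percentage points without HFD-F0 replicate 2, and 2.97 when CD-F0 replicate 1 was left out as well (p = 0.229, exact permutation test). For the 45S precursor, the share in CD-F0 replicates 1 to 5 was 10.2%, 12.2%, 13.7%, 12.3% and 10.9%. The 45S share in HFD-F0 replicates 1 to 5 was 10.8%, 7.70%, 14.1%, 17.98% and 16.4%. The HFD-F0 samples thus lay on both sides of the CD-F0 samples, and the difference of 1.54 percentage points was smaller than the spread (p = 0.452, exact permutation test). It was 0.389 percentage points without HFD-F0 replicate 4, 2.96 without HFD-F0 replicate 2, and 2.55 when CD-F0 replicate 1 was left out with the latter (p = 0.200, exact permutation test). Counting error alone, which does not cover library preparation, was at most 0.0365 percentage points for a share (half-width of the 95% Wilson interval).

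**Figure D1:**
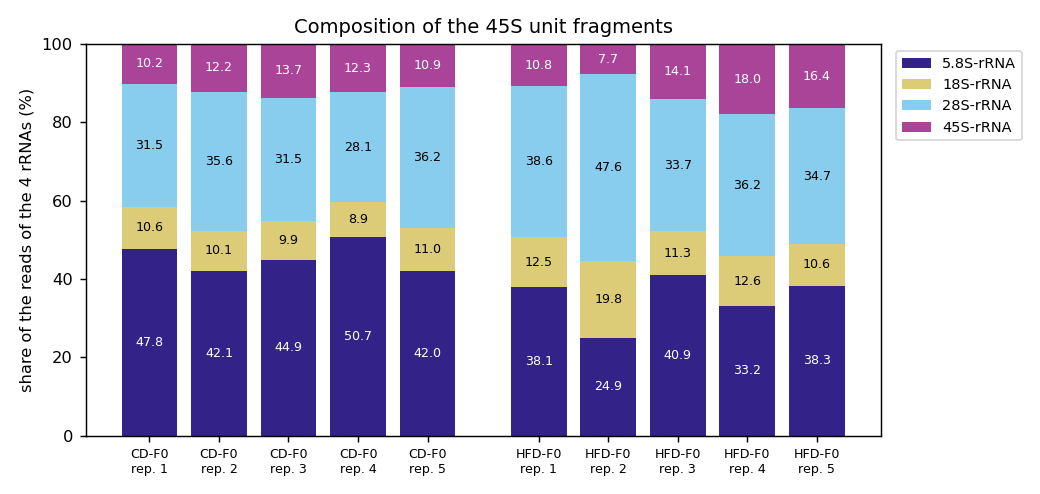
Share of 5.8S, 18S, 28S and 45S-rRNA in the reads of the 4 rRNAs (%, genome-matched and unmatched reads summed), with 1 bar for each of the 5 CD-F0 and 5 HFD-F0 samples. The 5.8S part is 42.0% or more in each CD-F0 bar and 40.9% or less in each HFD-F0 bar, and HFD-F0 replicate 2 has the smallest 5.8S part, 24.9%, and the largest 18S part, 19.8%.

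The ratios between species describe the same composition without a total. For each read of 18S-rRNA there were 3.83 to 5.70 reads of 5.8S-rRNA in the CD-F0 samples and 1.26 to 3.62 in the HFD-F0 samples, and the groups did not overlap. They did overlap within each kind of reads. In genome-matched reads alone this ratio was 0.100 to 1.16 in CD-F0 and 0.0316 to 0.340 in HFD-F0. In unmatched reads alone it was 15.4 to 42.4 in CD-F0 and 3.08 to 27.2 in HFD-F0. No share over all features was computed for such ratios. For each read of 28S-rRNA, its partner in the large subunit, there were 1.16 to 1.80 reads of 5.8S-rRNA in the CD-F0 samples and 0.523 to 1.21 in the HFD-F0 samples. For each read of the 45S precursor there were 3.28 to 4.68 reads of 5.8S-rRNA in the CD-F0 samples and 1.84 to 3.53 in the HFD-F0 samples. The last pair of ranges overlapped, as did those against 28S-rRNA. These ratios follow from the shares above and were not tested again.

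Levels were then compared as RPM, the reads in each 1000000 clean reads. The 5.8S level in CD-F0 replicates 1 to 5 was 171328, 99512, 107582, 147986 and 111113 RPM. In HFD-F0 replicates 1 to 5 it was 108468, 57154, 99594, 79527 and 88506 RPM. The 5.8S levels overlapped between the groups, with 3 HFD-F0 samples below the lowest CD-F0 sample and CD-F0 replicates 1 and 4 far above all HFD-F0 samples. The means were 127504 ± 30778 RPM (SD, n = 5) and 86650 ± 19798 RPM (SD, n = 5), and the HFD-F0 mean was 0.680 times the CD-F0 mean (p = 0.0397, exact permutation test). The call was lost when CD-F0 replicate 1, 4 or 5 or HFD-F0 replicate 2, 3, 4 or 5 was left out alone, with a difference of -29899 RPM at the smallest (p = 0.111 at the highest, exact permutation test). Without CD-F0 replicate 1 and HFD-F0 replicate 2 the 5.8S difference was -22525 RPM instead of -40854 RPM and did not pass the threshold (p = 0.143, exact permutation test). The call was also lost when the reads of the 4 rRNAs were taken out of the denominator (p = 0.0556, exact permutation test).

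The levels of the other members did not pass the test. The 18S level in CD-F0 replicates 1 to 5 was 38018, 23943, 23841, 25941 and 29016 RPM, and in HFD-F0 replicates 1 to 5 it was 35698, 45486, 27480, 30263 and 24484 RPM (p = 0.357, exact permutation test). The 28S level in CD-F0 replicates 1 to 5 was 112842, 83973, 75620, 82088 and 95741 RPM, and in HFD-F0 replicates 1 to 5 it was 109957, 109361, 82104, 86896 and 80134 RPM (p = 0.706, exact permutation test). The 45S level in CD-F0 replicates 1 to 5 was 36601, 28729, 32786, 35800 and 28828 RPM, and in HFD-F0 replicates 1 to 5 it was 30741, 17690, 34236, 43106 and 37762 RPM (p = 0.984, exact permutation test). In each of the 3 the groups overlapped, and the HFD-F0 mean was 1.16 times the CD-F0 mean for 18S-rRNA, 1.04 times for 28S-rRNA and 1.005 times for 45S-rRNA. The 18S difference of 4531 RPM was 1330 RPM without HFD-F0 replicate 2 and 6997 RPM without CD-F0 replicate 1. Without both of these samples the differences were 3796 RPM for 18S-rRNA, 5417 RPM for 28S-rRNA and 4925 RPM for 45S-rRNA (smallest p = 0.171, exact permutation test). With 1 sample left out, the 28S difference ran from -429 RPM (HFD-F0 replicate 1) to 9335 RPM (CD-F0 replicate 1). The 45S difference ran from -2441 RPM (HFD-F0 replicate 4) to 3912 RPM (HFD-F0 replicate 2), so both signs turned. The 45S level varied more in the HFD-F0 group, with an SD of 9558 against 3724 RPM, and of 5276 RPM without HFD-F0 replicate 2. The difference in spread was not tested. In bulk samples, fewer cells of a type and less RNA per cell cannot be told apart.

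**Figure D2:**
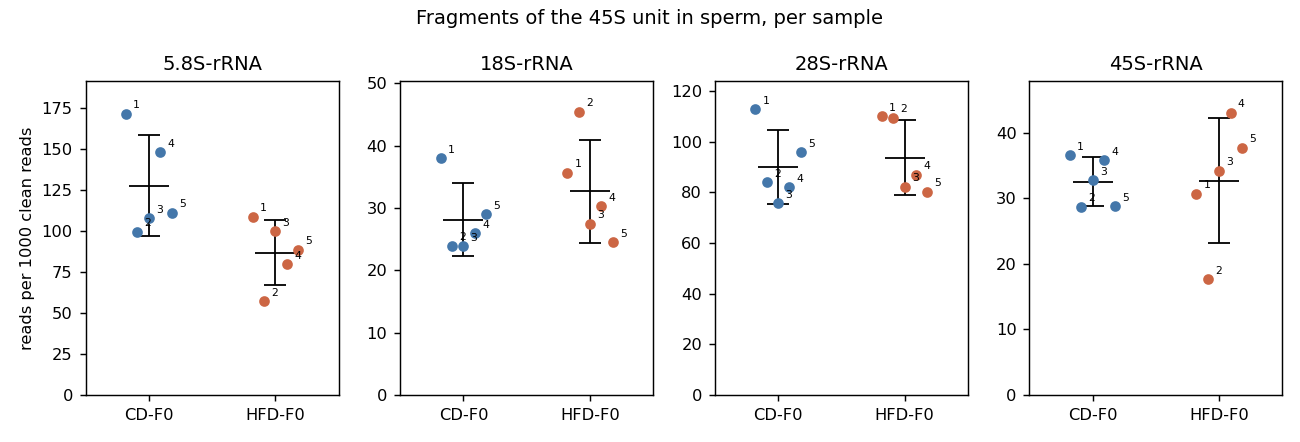
Levels of 5.8S, 18S, 28S and 45S-rRNA in reads per 1000 clean reads (1000 RPM is 1 on this axis), with 1 point per sample numbered by replicate, and the mean and SD of the 5 samples of each group as lines. The 5.8S mean is lower in HFD-F0 (0.680 times the CD-F0 mean), whereas in the other 3 panels the 2 means lie within 1 SD of each other.

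The same comparison was made relative to all other small RNAs, in one edgeR fit over 814 features with TMM normalization. The log2 fold change of 5.8S-rRNA was -0.70 (standard error 0.22, adjusted p = 0.229 over all features in edgeR's quasi-likelihood test). The log2 fold change was 0.09 (standard error 0.22, edgeR adjusted p = 0.925) for 18S-rRNA, -0.07 (standard error 0.17, edgeR adjusted p = 0.922) for 28S-rRNA and -0.11 (standard error 0.22, edgeR adjusted p = 0.922) for 45S-rRNA. By the study's rule, an unadjusted p of at most 0.05 and a log2 fold change of at least 1 in size, 0 of the 4 members were called, where 33 of the 814 features were (4.05%). Of the 4 members, 5.8S-rRNA alone passed the p threshold of that rule, which 92 of the 814 features passed (11.3%), and it was lower in HFD-F0, as were 39 of the 814 (4.79%). In the other direction 0 of the 4 members passed, against 6.51% of all features. With adjusted p under 0.05, 0 of the 4 members passed in edgeR, against 0.123% of all features, and 0 passed in DESeq2, against 15 of the 801 features with an adjusted p there (1.87%), where that of 5.8S-rRNA was 0.109. The median log2 fold change was -0.09 over the 4 members and -0.03 over all features. The signs of 28S and 45S-rRNA turned when clean reads served as library size, a scaling that moved the median of all features to 0.08. Signs also turned when 1 sample was left out. Without HFD-F0 replicate 2 the log2 fold change was -0.0937 for 18S-rRNA and 0.0297 for 45S-rRNA. Without CD-F0 replicate 1 it was 0.277 for 18S-rRNA and 0.0779 for 28S-rRNA. The groups did not overlap in RPM for 0 of the 4 members and for 3.81% of all features. For the shares, in which 5.8S-rRNA did not overlap, no such background exists, since only these 4 RNAs have one. Without CD-F0 replicate 1 and HFD-F0 replicate 2 the log2 fold change of 5.8S-rRNA was -0.41 (adjusted p = 0.498 in the same edgeR test), and it still passed the unadjusted threshold.

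The part of an rRNA's reads that matched the genome differed widely between the members, and the order was the same in all 10 samples. It was highest for 18S-rRNA, with 79.8% ± 8.81 (SD, n = 10). It was 52.0% ± 4.89 (SD, n = 10) for 28S-rRNA, 26.5% ± 8.39 (SD, n = 10) for 45S-rRNA and 7.65% ± 4.67 (SD, n = 10) for 5.8S-rRNA. For each of the 6 pairs of members p was 0.00195 (exact sign-flip permutation test over samples, two-sided, the smallest p that 10 samples allow, and 0.00195 after Benjamini-Hochberg adjustment over the 6). For comparison, 5S, 4.5S and 16S-rRNA matched the genome with 100% of their reads and 12S-rRNA with 99.4% to 99.8%. RefSeq lists 420 bases for a 28S entry, Rn28s1, whose place in the assembly was not examined here. Whether the rRNA copies held by the assembly account for the order of these percents was not tested.

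Between samples, the genome-matched part varied most for 5.8S-rRNA relative to its level. For 5.8S-rRNA it was 8.50%, 12.9%, 11.3%, 15.3% and 2.01% in CD-F0 replicates 1 to 5. In HFD-F0 replicates 1 to 5 it was 8.72%, 3.78%, 7.58%, 1.05% and 5.35%. The genome-matched 5.8S level thereby ranged 27.0-fold, from 837 RPM in HFD-F0 replicate 4 to 22586 RPM in CD-F0 replicate 4, whereas the unmatched 5.8S level ranged 2.85-fold. The 18S value in CD-F0 replicates 1 to 5 was 73.3%, 85.0%, 90.6%, 75.1% and 76.7%. In HFD-F0 replicates 1 to 5 it was 80.5%, 60.8%, 80.9%, 87.5% and 87.4%, with HFD-F0 replicate 2 far below the others. The 28S value lay between 41.0% and 60.7% in the CD-F0 samples and between 49.995% and 54.2% in the HFD-F0 samples. The 45S value lay between 16.7% and 34.6% in the CD-F0 samples and between 15.7% and 41.4% in the HFD-F0 samples. The diets did not differ past the threshold for 5.8S-rRNA (-4.70 percentage points, p = 0.111, exact permutation test), nor for 18S (p = 0.929), 28S (p = 0.778) or 45S-rRNA (p = 0.635, all by the same exact permutation test). The 5.8S difference passed only when CD-F0 replicate 5 was left out (-6.70 percentage points, p = 0.0238, exact permutation test).

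**Figure D3:**
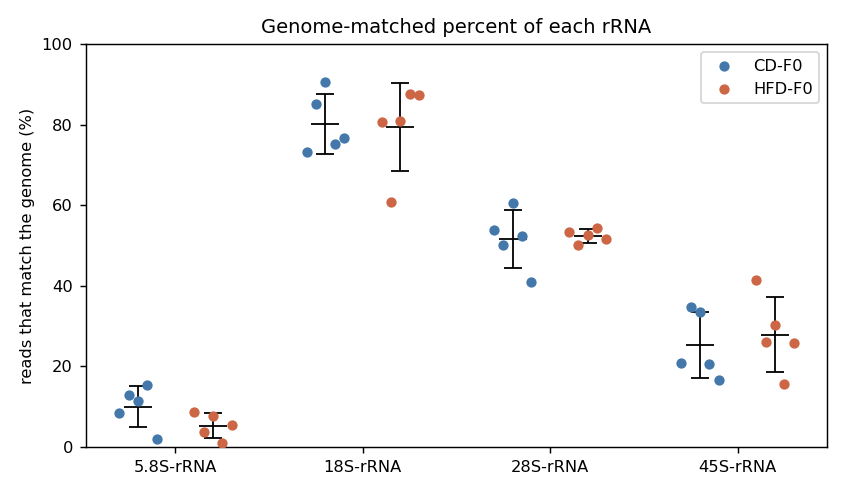
Percent of the reads of each rRNA that match the genome, with 1 point per sample (5 CD-F0, 5 HFD-F0) and the mean and SD of each group as lines. The means over all 10 samples step down from 79.8% for 18S to 52.0% for 28S, 26.5% for 45S and 7.65% for 5.8S, and within each rRNA the 2 groups overlap.

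Split in this way, the mean 5.8S level was lower in HFD-F0 in both kinds of reads, and passed the permutation test in the unmatched reads. For unmatched 5.8S reads the CD-F0 mean was 114625 ± 27724 RPM (SD, n = 5) and the HFD-F0 mean 81702 ± 16830 RPM (SD, n = 5) (p = 0.0476, exact permutation test). The genome-matched 5.8S level was 12879 ± 7261 RPM (SD, n = 5) and 4948 ± 3601 RPM (SD, n = 5), which did not pass the threshold (p = 0.0556, exact permutation test). In edgeR fits of each kind of reads alone, the log2 fold change of 5.8S-rRNA was -1.55 for genome-matched reads (edgeR adjusted p = 0.393) and -0.79 for unmatched reads (edgeR adjusted p = 0.240), both past the unadjusted threshold, as were 10.6% and 19.8% of all features in the same fits. With genome-matched reads alone, 5.8S-rRNA thus passed the study's rule, which called 3.96% of the features in that fit. The unmatched 18S level, from 2252 to 10165 RPM in the CD-F0 samples, reached 17852 RPM in HFD-F0 replicate 2 and 3083 to 6950 RPM in the other HFD-F0 samples.

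The 2 rRNAs of the different subunits, 18S and 28S, varied together over the samples. Their RPM had r = 0.899 (p = 0.00084, adjusted p = 0.0118, n = 10, permutation test) and rho = 0.879 (p = 0.00169, adjusted p = 0.0237, permutation test), where adjustment was over the 14 relations computed. Without the 2 samples farthest from the median of 18S-rRNA, CD-F0 replicate 1 and HFD-F0 replicate 2, r was 0.910 (p = 0.00456, n = 8, exact permutation test). As deviations from the mean of the diet group, r was 0.914. Both values are parts of the same clean reads. Relative to miRNA reads r was 0.823, but these are again a denominator common to both, so this value cannot show r without one. In unmatched reads alone r was 0.717 (p = 0.0107, unadjusted, permutation test). The ratio of 18S to 28S reads lay between 0.285 and 0.416 and had the lowest coefficient of variation of the 6 ratios between members, 10.9% against 24.9% to 55.8% for the others. Without HFD-F0 replicate 2 it was 6.14% against 20.9% to 26.3%. In genome-matched reads alone it was 7.86%, and in unmatched reads alone 53.6%, or 34.2% without HFD-F0 replicate 2. In unmatched reads it was not the lowest, since the ratio of 5.8S to 45S reads had 24.1%, or 25.6% without that sample.

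Over all 10 samples and without taking out the diet means, none of the other 13 relations passed the threshold, with unadjusted permutation p of 0.0914 or more. For 5.8S-rRNA this held with 28S-rRNA, with which it pairs in the ribosome (r = 0.145, p = 0.697, n = 10, permutation test) and with 18S-rRNA (r = -0.125, p = 0.736, n = 10, permutation test). Both signs turned when 1 sample was left out, to -0.359 with 28S-rRNA without CD-F0 replicate 1 and to 0.479 with 18S-rRNA without HFD-F0 replicate 2. Its relation to 45S-rRNA, r = 0.373, was 0.662 at the highest and -0.0761 at the lowest when each sample was left out in turn, the lowest without HFD-F0 replicate 2. For 45S-rRNA, r was -0.512 with 18S-rRNA and -0.415 with 28S-rRNA. The first was -0.00257 without CD-F0 replicate 1 and HFD-F0 replicate 2, and the second was -0.732 (p = 0.0506, n = 8, exact permutation test) without the samples farthest from the median of 28S-rRNA, CD-F0 replicate 1 and HFD-F0 replicate 1, but -0.136 without HFD-F0 replicate 2. With 5S-rRNA r was between -0.419 and -0.0997 for the 4 members, and with the summed mitochondrial 12S and 16S-rRNAs between -0.563 and 0.198.

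**Figure D4:**
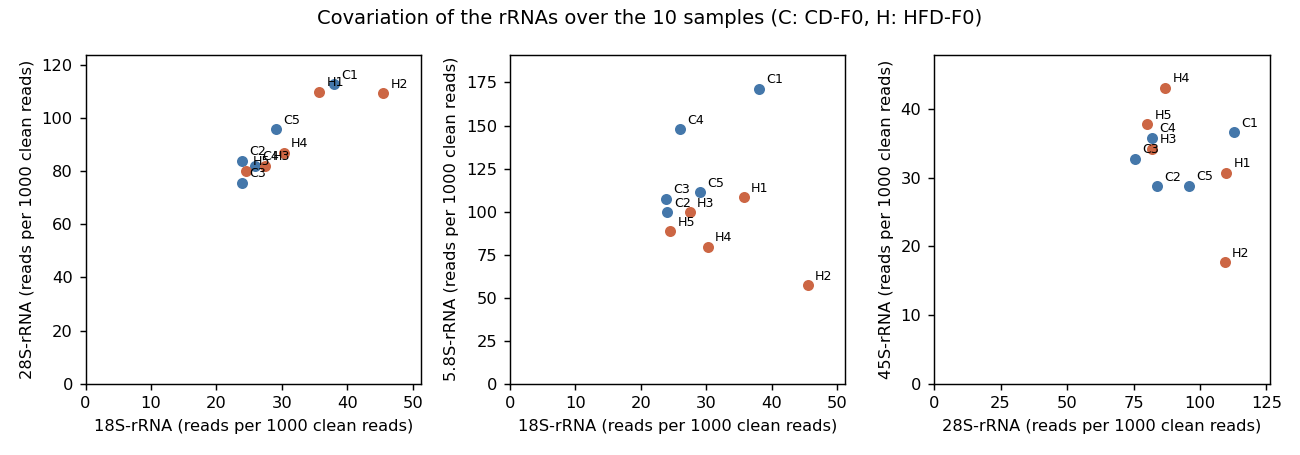
Levels of 28S against 18S-rRNA, 5.8S against 18S-rRNA, and 45S against 28S-rRNA, in reads per 1000 clean reads (1000 RPM is 1 on these axes), with 1 point per sample labelled C (CD-F0) or H (HFD-F0) and its replicate. The 18S and 28S points rise together (r = 0.899), the 5.8S and 18S points do not (r = -0.125), and H2 lies at the lowest 5.8S and 45S levels.

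The other species of the rRNA set did not differ between the diets past the threshold. The 5S-rRNA, the remaining RNA of the cytosolic large subunit, had a CD-F0 mean of 3860 ± 700.1 RPM (SD, n = 5) and an HFD-F0 mean of 3414 ± 946 RPM (SD, n = 5) (log2 fold change -0.27, edgeR adjusted p = 0.657). The log2 fold change was -0.06 for 12S-rRNA, 0.12 for 16S-rRNA and 0.24 for 4.5S-rRNA, each with an edgeR adjusted p of 0.735 or more. Small nucleolar RNAs and small Cajal body RNAs, which guide the modification of rRNA and of spliceosomal RNA, were listed as 3 features, each the total of a class. Of these, 0 passed the unadjusted p threshold in either direction, where 4.79% of all features passed it as lower and 6.51% as higher in HFD-F0. The Rfam small nucleolar RNAs were near the floor, with means of 0.619 RPM in CD-F0 and 0.596 RPM in HFD-F0. The log2 fold changes of the 3 features had a median of -0.09, against -0.03 over all features. The largest of them, the Ensembl small nucleolar RNAs, had means of 1977 ± 304 RPM (SD, n = 5) in CD-F0 and 1948 ± 367 RPM (SD, n = 5) in HFD-F0, with an edgeR adjusted p of 0.909. Reads that other databases annotate as rRNA were few beside the 4 members, at a CD-F0 mean of 24.1 ± 3.13 RPM (SD, n = 5) and an HFD-F0 mean of 18.7 ± 2.80 RPM (SD, n = 5) for Ensembl rRNA, which passed the unadjusted threshold (log2 fold change -0.47, adjusted p = 0.341 in edgeR). For Rfam rRNA, of which 11.4% to 23.3% of the reads matched the genome, the CD-F0 mean was 778 ± 176 RPM (SD, n = 5) and the HFD-F0 mean 904 ± 258 RPM (SD, n = 5).

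Among the 806 features outside the rRNA set, those whose log2(RPM + 1) was most like that of a member over the 10 samples were taken for each member. Of the 12, 7 were miRNAs, as were 65.6% of the 806. For 5.8S-rRNA they were mir-431 (r = 0.930, at a mean of 5.26 RPM), the Rfam class of other RNA (r = 0.827) and mir-3082 (r = 0.815, at a mean of 0.372 RPM). For 18S-rRNA they were mir-421 (r = 0.886), Rfam rRNA (r = 0.880) and mir-329 (r = 0.862). For 28S-rRNA they were mir-29a (r = 0.915, at a mean of 641 RPM), its relative mir-29c (r = 0.911, at a mean of 546 RPM) and a precursor of tRNA-Leu-CAA (r = 0.865). For 45S-rRNA they were mir-1224 (r = 0.860), the internal part of mitochondrial tRNA-Glu-TTC (r = 0.754) and the 3′ end of tRNA-Gln-CTG (r = 0.751). For each member they are the highest 3 of 806 values over 10 samples that share their libraries and depth, so they are given as a description, and 5 of the 12 had a mean below 2 RPM.

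Markers of sperm and of other cells were present in all samples. The 5 miRNAs of late germ cells summed to a CD-F0 mean of 11654 ± 960.0 RPM (SD, n = 5) and an HFD-F0 mean of 10486 ± 2877 RPM (SD, n = 5), a difference with p = 0.405 in the exact permutation test and with 57.4% from mir-449a. In HFD-F0 replicates 2 and 4 this sum was 9203 and 7275 RPM, the lowest of the 10, and these samples also had the lowest 5.8S shares. HFD-F0 replicate 1 had the highest sum, 15064 RPM, and the third lowest 5.8S share. The 6 markers of epididymal epithelium, 38.4% of them mir-429, had means of 5519 ± 1194 RPM (SD, n = 5) for CD-F0 and 6890 ± 1574 RPM (SD, n = 5) for HFD-F0, 1.25 times as high in HFD-F0 (p = 0.167, exact permutation test). The 6 smooth muscle markers, 94.9% of them mir-143, were 1.12 times as high in HFD-F0 (p = 0.444, exact permutation test), whereas the 7 blood and immune markers, 56.1% of them mir-146a, were 1.06 times as high (p = 0.667, exact permutation test). None of the 24 markers was at 0 in all samples. Taken singly, the smooth muscle marker mir-145a passed the study's rule, with a log2 fold change of 1.06 (adjusted p = 0.333 in edgeR), while that of mir-143 was 0.00174. The blood marker mir-223 passed the unadjusted p threshold alone, with a log2 fold change of 0.43 (adjusted p = 0.240 in edgeR), and the other markers passed neither. The part of these cells in the lower 5.8S share of HFD-F0 was not tested.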

How the data were processed

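Small RNA of sperm was sequenced by the authors on the DNBSEQ platform with adapters that carry unique molecular identifiers. Whether reads were collapsed by identifier is not given in the sources used here. The authors assigned the clean reads to RNA sets by SPORTS and Bowtie at up to 1 mismatch, and the labels name mm10. The deposited values were estimated counts for each RNA class and its sub-classes, without normalization and with genome-matched and unmatched reads apart. Reads shared by sub-classes were divided among them, but all rRNA values were whole and added up to the class total within 1 read. The 2 kinds of reads were summed, and the estimated counts were rounded for the fits.

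The members and lists were chosen with earlier results of these data known. edgeR 4.0.16 in R 4.3.3 (TMM, filterByExpr, quasi-likelihood test, no covariate, Benjamini-Hochberg adjustment) was fitted to the 814 of 1470 features that passed the filter, all 4 members among them. RPM, shares and genome-matched percents were compared with exact permutation tests over all 252 splits into 5 and 5 samples, pairs of members with exact sign-flip tests, and correlations with 100000 permutations, two-sided throughout, in Python 3.11.15 with scipy 1.17.1. The features named were the 4 members, the other rRNAs, all listed small nucleolar and Cajal body RNAs, and for each member the 3 features most correlated with it. Alternatives were DESeq2 1.42.0, other library sizes, denominators, filters and scales, each kind of reads alone, each sample left out, and the replicate number as a block. Leaving out CD-F0 replicate 1 and HFD-F0 replicate 2 together was added after seeing the data. The tests were tried on simulated data. All pairs of libraries differed by more than sampling noise, with a chi-square per degree of freedom of 593 or more over the 45 pairs. Intervals cover counting error only.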

Additional observations from a re-analysis of the deposited data

Results flagged for a closer look

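Of 44 groups of 5 values examined, 4 held a sample whose gap to its neighbour was large beside the range of the group, where chance gives about 1 in 20. HFD-F0 replicate 2 gave 3 of these. Its 18S share of the reads of the 4 rRNAs was 19.8%, its unmatched 18S level was 17852 RPM, and the genome-matched part of its 18S reads was 60.8%. HFD-F0 replicate 1 stood above the other HFD-F0 samples in the summed level of the 4 rRNAs, with 284865 RPM.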

How the results depend on the processing

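Apart from leaving out single samples, 126 of 154 repeats gave the same direction and side of the threshold. Many of these repeats were of results without a call, which had none to lose. A diet call was lost in 4 repeats for the RPM differences and in 6 for the share differences, those with the replicate number as a block among them. The log2 fold change of 5.8S-rRNA was -1.55 with genome-matched reads only (adjusted p = 0.393 in edgeR), which passed the study's rule, as 3.96% of the features in that fit did. Its RPM difference no longer passed with clean reads without the 4 rRNAs as denominator (-64376), with genome-matched reads (-7931) or without CD-F0 replicate 1 and HFD-F0 replicate 2 (-22525). The 18S share no longer passed with genome-matched reads (3.57 percentage points), unmatched reads (1.93), the centred log-ratio (0.290) or without those samples (1.78), and its genome-matched percent then turned to 2.24 percentage points. Directions without a call also turned. The log2 fold change became 0.0571 for 28S and 0.00700 for 45S-rRNA with clean reads as library size, and for 45S-rRNA 0.00353 with genome-matched reads and 0.13 without those samples. The 28S RPM difference became -1755 without the 4 rRNAs in the denominator and -28665 relative to miRNA reads. The 45S difference became -185 over annotated reads, -2115 without the 4, -11267 relative to miRNA, -530 in unmatched reads and -0.0463 on the log2 scale. Relative to miRNA, r became 0.0595 for 5.8S with 18S, 0.0796 for 28S with 45S and 0.196 for 5.8S with 5S-rRNA. As deviations from diet means it became 0.134 for 5.8S with 18S, and -0.727 for 18S with mitochondrial rRNA (p = 0.0172, permutation test, unadjusted). Beyond the settings' own construction, the cause was not tested.

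Samples with the same replicate number did not deviate together (correlations -0.205 to 0.342). With the replicate number as a block, the 5.8S log2 fold change was -0.67 (edgeR adjusted p = 0.203) and the 5.8S share difference -10.4 percentage points, its RPM difference -40854 and the 18S share difference 3.26 percentage points. For 5 pairs the smallest p of the exact sign-flip test is 0.0625, which says nothing on stability. The study's rule called 24 features with the block, 33 without it, 29 in DESeq2 and 93 without a filter on low counts. An adjusted p under 0.05 was reached by 1 feature in edgeR, 5 with clean reads as library size and 15 in DESeq2.

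When single samples were dropped, the log2 fold change of 5.8S-rRNA stayed between -0.80 and -0.52 and its share difference between -11.9 and -7.86 percentage points, where groups that do not overlap had to keep their direction. The 5.8S RPM difference ran from -47853 to -29899 and the share difference from 1.66 to 3.96 percentage points for 18S-rRNA, 3.25 to 6.72 for 28S-rRNA and 0.389 to 2.96 for 45S-rRNA. Signs turned for results without a call. The log2 fold change ran from -0.0937 (without HFD-F0 replicate 2) to 0.277 for 18S-rRNA, from -0.162 to 0.0779 (without CD-F0 replicate 1) for 28S-rRNA and from -0.255 to 0.0297 (without HFD-F0 replicate 2) for 45S-rRNA. The RPM difference ran from 1330 to 6997 for 18S-rRNA, from -429 to 9335 for 28S-rRNA and from -2441 to 3912 for 45S-rRNA. The difference in genome-matched percent ran from -6.70 (without CD-F0 replicate 5, p = 0.0238, exact permutation test) to -3.39 percentage points for 5.8S-rRNA, from -2.72 to 3.96 for 18S-rRNA, from -1.89 to 3.03 for 28S-rRNA and from -0.811 to 5.63 for 45S-rRNA. For 5.8S-rRNA r ran from -0.573 to 0.479 with 18S, -0.359 to 0.504 with 28S, -0.0761 to 0.662 with 45S, -0.246 to 0.187 with 5S and -0.824 to -0.201 with mitochondrial rRNA. It ran from -0.647 to 0.124 for 18S with 45S, from -0.627 to -0.136 for 28S with 45S and from -0.766 to -0.208 for 28S with mitochondrial rRNA. The relations with mitochondrial rRNA reached unadjusted p of 0.0111 (5.8S, without HFD-F0 replicate 2) and 0.0158 (28S, without HFD-F0 replicate 1) in permutation tests. For 18S with 28S, r stayed between 0.888 and 0.948.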
